A study of Mus musculus with 6 samples.

Results

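The genes described here build the transport machinery and the gate of the cilium. They are the subunits of intraflagellar transport complexes B and A and the motor of the return journey, the BBSome and the factors that assemble it, the proteins of the transition zone, and a group of ciliary GTPases and photoreceptor cilium proteins. A list of 41 genes was matched by symbol to a table of 24062 genes, and the 40 that were found all had a summed count of 10 or more, so all 40 were tested. They fall into 5 roles, with 9 genes of IFT-B, 7 of IFT-A and its motor, 10 of the BBSome and its assembly, 9 of the transition zone and 5 of the last group. Rp2, which encodes a GTPase activating protein for ARL3, had no row under that name. The row under its older symbol Rp2h was left out of all counts, although genes of the lists used for comparison were also matched by older symbols. Rp2h held 241, 260 and 248 normalized counts in the TKO retinae and 334, 312 and 264 in the DKO retinae, so every TKO retina lay below every DKO retina. It did not pass the test (log2 fold change -0.28, standard error 0.12, unadjusted p = 0.0498 and adjusted p = 0.151 from edgeR).

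RNA-seq libraries were made from whole retinae of mice at postnatal day 21 (P21), whose strain the labels give as C57BL/6 and the study's methods as C57BL/6N, with 1 library from each of 6 retinae. The 3 TKO retinae were Chx10-Cre Rb1/p107/Hells, with floxed Rb1 and floxed Hells recombined by the Cre and with p107 deleted in the germline. The 3 DKO retinae were Chx10-Cre Rb1/p107, with no deletion of Hells in their label, so both groups shared the loss of Rb1 and p107, which in mice leads to retinoblastoma, and differed by design in the chromatin remodeler HELLS. The Chx10-Cre transgene acts in retinal progenitor cells in a mosaic pattern, so each retina also held cells that kept their floxed alleles. The comparison of TKO with DKO asks what removing HELLS changes in the transcripts of an Rb1/p107-null retina. The labels do not say whether the retinae of a group came from separate animals, and the p-values measure the spread between these retinae.

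A cilium grows from a basal body, and because it holds no ribosomes its proteins are brought in by intraflagellar transport (IFT) trains, which IFT-B subunits carry out to the tip with kinesin-2 and IFT-A subunits carry back with the dynein-2 motor. The BBSome is a coat of BBS proteins that rides on these trains and removes membrane proteins from the cilium, and the transition zone at the cilium's base decides what may pass. In the retina the outer segment of rods and cones is a modified cilium, and its connecting cilium is a long transition zone, so that inherited defects in these genes lead to photoreceptor degeneration. Primary cilia are also found on the other cells of the retina and on progenitor cells between divisions.

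Read pairs counted on genes summed to between 10343907 and 14203098 per retina. Normalized counts below are counts divided by a library's TMM-scaled size relative to the mean size, given in the order of replicates 1, 2 and 3, and folds are from edgeR's quasi-likelihood test over 16904 genes with Benjamini-Hochberg adjustment, where a gene passed at an adjusted p of at most 0.05. Hells itself held 60.8, 68.4 and 83.4 normalized counts in the TKO retinae and 678, 523 and 395 in the DKO retinae, so each retina followed its label (log2 fold change -2.91, adjusted p = 0.00359 from edgeR). Rb1 held 0.34 more on the log2 scale in TKO (adjusted p = 0.0388), and Rbl1, which encodes p107, differed by 0.13 (adjusted p = 0.839). Every listed marker of the retinal neurons (photoreceptors, bipolar, horizontal, amacrine and ganglion cells) and of Muller glia was counted in all 6 retinae. All 12 rod markers rose, with a median log2 fold change of 1.76 (Gnat1, rod transducin, 1.84, adjusted p = 0.0114; Sag, rod arrestin, 1.63, adjusted p = 0.0132), and all 10 dividing cell markers fell, with a median of -2.65 (Pcna -1.27, Top2a -3.21 and Mki67 -2.52). In whole retinae a larger share of cells that use a gene and more of its RNA per cell cannot be told apart, and this holds for every value that follows. Of 10 cone markers 2 rose, where 7.35% of all genes did, with a median of 0.83 (Gnb3 0.28, Opn1sw 1.24 and Arr3 1.14). Of 8 microglia markers 6 fell, where 9.2% of all genes did, with a median of -1.09 (Csf1r -1.03, C1qb -1.17 and C1qa -1.29). With 1 retina left out, between 4 and 12 rod markers rose, the fewest without TKO replicate 2 (6), DKO replicate 1 (5) or DKO replicate 2 (4). Over all genes 1243 rose and 1556 fell with all retinae. In these 3 fits 308, 312 and 214 of all genes rose and 404, 499 and 433 fell. The microglia count was 4 when TKO replicate 1 was left out, 1 when DKO replicate 1 was and 0 when replicate 2 of either genotype was, and the count of dividing cell markers that fell was 6 without TKO replicate 2. The cone count was 0 with robust dispersion and in the fits without replicate 1 or 2 of either genotype, 9 without TKO replicate 3 and 6 without DKO replicate 3. Lens markers summed to 626, 3470 and 519 normalized counts in the TKO retinae and to between 105 and 109 in the DKO retinae (Cryaa, Cryba1 and Crybb2 were the most abundant). The 4 of 8 lens markers that rose were all crystallins. Mip, Bfsp1 and Bfsp2 did not pass, and for them only TKO replicate 2 lay above all DKO retinae. Markers of the retinal pigment epithelium (RPE), led by Ttr, Rgr and Pmel, summed to between 1019.8 and 3184 in TKO and between 289.9 and 1429.8 in DKO retinae.

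Of the 40 genes, 16 rose in TKO retinae and 0 fell, where 7.35% of all genes tested rose and 9.2% fell. None of the 40 was lower at an unadjusted p of 0.05 either, and DESeq2 also called 0 lower. The listed gene left out, Rp2, was lower at that level (unadjusted p = 0.0498 from edgeR, as Rp2h). The median log2 fold change of the 40 genes was 0.35, where the median over all 16904 genes was -0.011, and the fitted change was above 0 for 36 of them, of which 4 that did not pass turned below 0 with scaling by total counts alone. The rise was unevenly spread over the roles. It took in 8 of 10 genes of the BBSome and its assembly (median 0.84), 5 of 5 ciliary GTPases and photoreceptor cilium proteins (median 0.91) and 3 of 9 transition zone genes (median 0.18). None of the 16 IFT and motor genes passed in edgeR (median 0.22), although DESeq2 called 1, Ift81. At an unadjusted p under 0.05, 6 of the 16 were higher, where 2588 of all 16904 genes were. Every TKO retina lay above every DKO retina for 24 of the 40 genes, where this held for 18.0% of all genes.

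**Figure D1:**
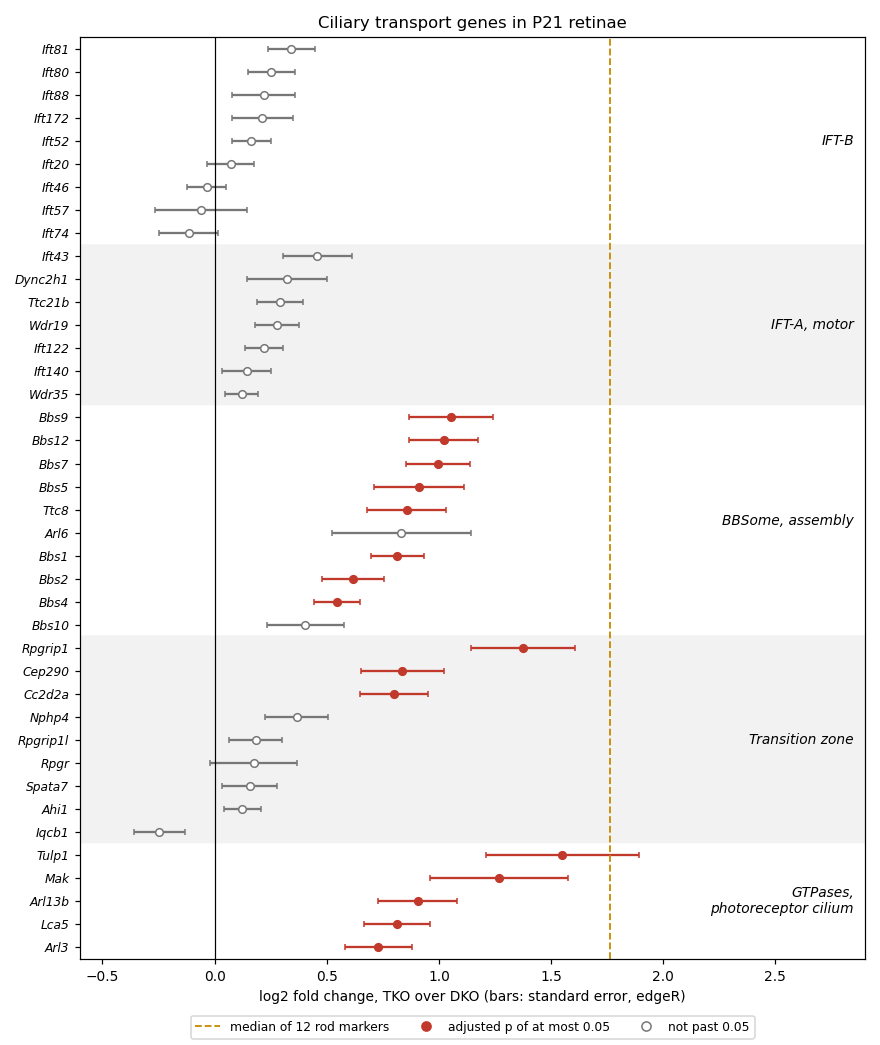
Log2 fold change of TKO over DKO for each of the 40 ciliary genes by role, with edgeR's standard error as bars, filled where the adjusted p was at most 0.05. The 16 IFT and motor genes lie between -0.12 and 0.46, with 13 of them above 0. Most BBSome genes lie between 0.55 and 1.05, and the dashed line is the median of 12 rod markers, 1.76.

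The study's own criteria for differential expression ask in addition for a 2-fold change (1 on the log2 scale) and for 10 normalized counts on average. By these 3 criteria 5 of the 40 genes were differentially expressed, all higher in TKO, where 1.97% of all genes were called higher and 4.38% lower. These were Bbs9 and Bbs12 of the BBSome group, Rpgrip1 of the transition zone, and Mak and Tulp1 of the photoreceptor cilium. The number that passed the test depended on which retina was left out. It fell to 4 when TKO replicate 2 was left out, to 5 when DKO replicate 1 was and to 4 when DKO replicate 2 was. Leaving out TKO replicate 1 gave 11, and leaving out replicate 3 of either genotype gave 19. In the fits with 4 or 5 genes, 3 were of the BBSome group and 1 or 2 of the transition zone, and none of the GTPases and photoreceptor cilium proteins passed. Bbs1, Bbs7, Bbs12 and Rpgrip1 passed in each of these 6 fits, and the other 12 genes that passed did so in 2 to 4 of them. The fitted change of these 16 genes was at least 0.475 in every one of the 6 fits.

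All 7 subunits of the BBSome coat on the list rose, namely Bbs1, Bbs2, Bbs4, Bbs5, Bbs7, Bbs9 and Ttc8 (BBS8). Bbip1, a further coat subunit that was not on the list, did not pass (log2 fold change 0.22, adjusted p = 0.287 from edgeR). Its groups overlapped, and TKO replicate 3 lay below every DKO retina. Bbs9, a propeller subunit of the coat (GRCm38 chromosome 9, 22475715 to 22888280), held 1811, 1697 and 1225 normalized counts in the TKO retinae and 651, 673 and 956 in the DKO retinae (log2 fold change 1.05, standard error 0.19, adjusted p = 0.0106 from edgeR). Every TKO retina lay above every DKO retina, and the nearest pair was TKO replicate 3 and DKO replicate 3. Bbs7, which forms the core with BBS2 and BBS9 (chromosome 3, 36573142 to 36613477), held 2423, 2038 and 1711 normalized counts in the TKO retinae and 955, 946 and 1194 in the DKO retinae (log2 fold change 1.00, standard error 0.14, adjusted p = 0.00721). Here the lowest TKO retina lay 1.43-fold above the highest DKO retina, and the groups did not overlap. Bbs1, the subunit that binds the GTPase ARL6 at the membrane (chromosome 19, 4886878 to 4906628), held 1983, 1982 and 1750.0 normalized counts in the TKO retinae and 1009, 965 and 1278 in the DKO retinae (log2 fold change 0.81, standard error 0.12, adjusted p = 0.00731). Its TKO retinae lay close together, and all were well above the highest DKO retina. Bbs4, a TPR-repeat subunit linked to centriolar satellites, held 2423, 2314 and 2257 normalized counts in the TKO retinae and 1436, 1523 and 1830.4 in the DKO retinae (log2 fold change 0.55, standard error 0.10, adjusted p = 0.0122), the smallest rise of the 7.

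The other 3 coat subunits on the list were Bbs2, Bbs5 and Ttc8. Bbs2, the partner of BBS7 in the core, held 1499, 1281 and 1096 normalized counts in the TKO retinae and 835, 728 and 964 in the DKO retinae (log2 fold change 0.62, standard error 0.14, adjusted p = 0.0216). Bbs5, a membrane-facing subunit with PH domains, held 991, 918 and 614 normalized counts in the TKO retinae and 382, 407 and 553 in the DKO retinae (log2 fold change 0.91, standard error 0.20, adjusted p = 0.0201), and TKO replicate 3 lay much nearer to the DKO retinae than the other TKO retinae did. Ttc8, a TPR-repeat subunit, held 1634, 1348 and 969 normalized counts in the TKO retinae and 667, 711 and 806 in the DKO retinae (log2 fold change 0.86, standard error 0.17, adjusted p = 0.0158). In none of the 7 subunits did a DKO retina reach a TKO retina, where this held for 18.0% of all genes.

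Of the genes that act on the coat without being part of it, 1 of 3 rose. Bbs12, a chaperonin-like protein that helps to assemble the BBSome (chromosome 3, 37312554 to 37321453), held 709, 618 and 506 normalized counts in the TKO retinae and 270.1, 278 and 354 in the DKO retinae (log2 fold change 1.02, standard error 0.16, adjusted p = 0.00755). Its TKO retinae all lay above its DKO retinae. Bbs10, another chaperonin-like assembly factor, held 229, 248 and 182 normalized counts in the TKO retinae and 138, 175 and 185 in the DKO retinae and did not pass (log2 fold change 0.40, standard error 0.17, adjusted p = 0.139), and TKO replicate 3 lay below DKO replicate 3. Arl6 (BBS3), the GTPase that recruits the coat to membranes and the member of this role with the largest mean (chromosome 16, 59612949 to 59639391), held 2639.8, 3371 and 2106 normalized counts in the TKO retinae and 1106, 1068 and 2382 in the DKO retinae (log2 fold change 0.83, standard error 0.31, adjusted p = 0.103). Its fitted change was as large as that of Bbs1 but its groups overlapped, because DKO replicate 3 lay above TKO replicate 3 and far above the other DKO retinae.

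**Figure D2:**
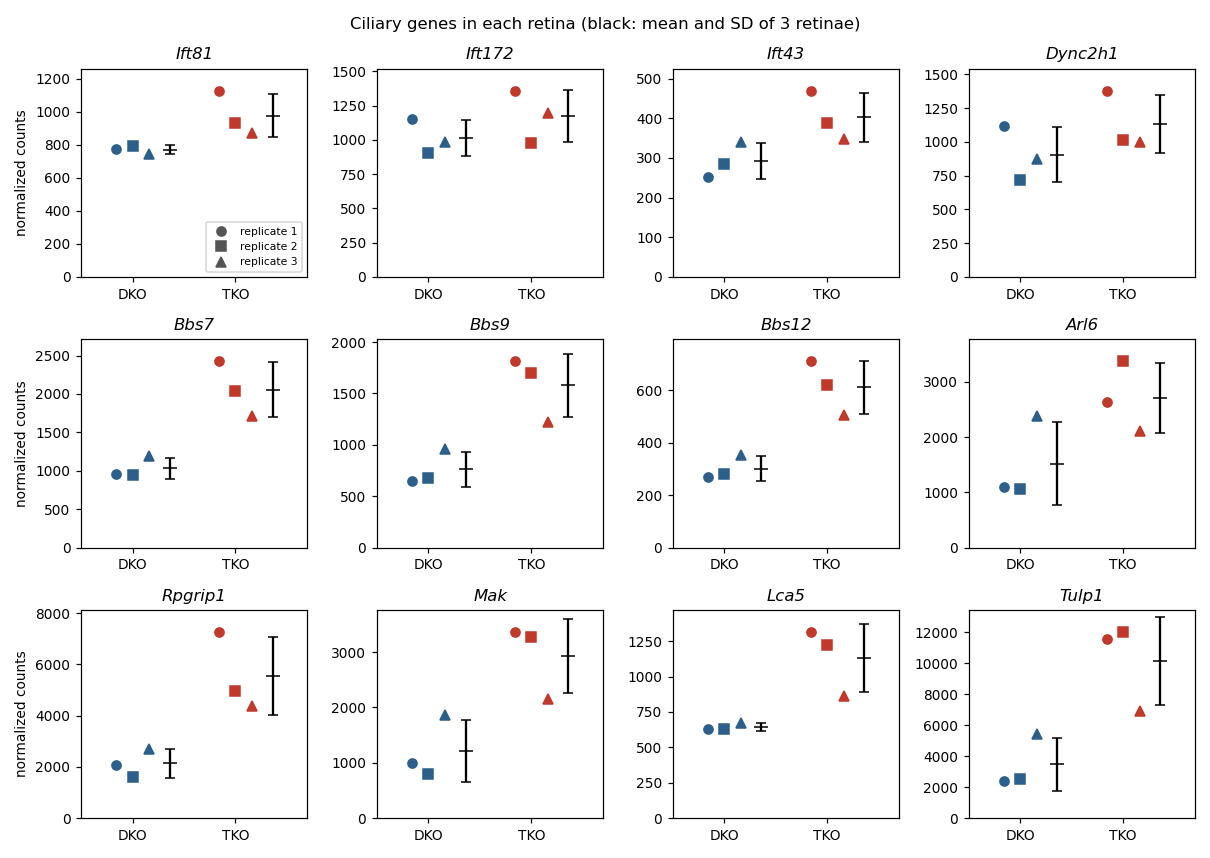
Normalized counts (y axis, starting at 0, own scale for each gene) in each retina for 12 ciliary genes, with circles, squares and triangles for replicates 1, 2 and 3 and black bars for mean and SD of 3 retinae. The groups are apart for Bbs7, Bbs9, Bbs12, Rpgrip1, Mak, Lca5 and Tulp1, and for Ift81 and Ift43 by less, while Ift172, Dync2h1 and Arl6 overlap.

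Ciliary GTPases and photoreceptor cilium proteins rose in all 5 tested cases, with Rp2 of the same group left out, and they include the largest change of the 40 genes. Tulp1, a tubby family protein of photoreceptors needed for traffic to the outer segment (chromosome 17, 28351515 to 28365222), held 11549, 11994 and 6886 normalized counts in the TKO retinae and 2409, 2534 and 5443 in the DKO retinae (log2 fold change 1.55, standard error 0.34, adjusted p = 0.0197 from edgeR). TKO replicates 1 and 2 were far above all other retinae, whereas TKO replicate 3 and DKO replicate 3 were 1.27-fold apart. Mak, a kinase that restrains the length of the photoreceptor axoneme (chromosome 13, 41025008 to 41079706), held 3360.0, 3263 and 2156 normalized counts in the TKO retinae and 998, 791 and 1858 in the DKO retinae (log2 fold change 1.27, standard error 0.31, adjusted p = 0.0272). Again DKO replicate 3 was the highest DKO retina and TKO replicate 3 the lowest TKO retina. With robust dispersion estimates neither gene passed (adjusted p = 0.0578 for Tulp1 and 0.0755 for Mak from edgeR). Lca5 (lebercilin), an IFT-binding protein of the axoneme (chromosome 9, 83390293 to 83441127), held 1314, 1219.8 and 863 normalized counts in the TKO retinae and 631, 627 and 674 in the DKO retinae (log2 fold change 0.81, standard error 0.15, adjusted p = 0.0112), with DKO retinae within a narrow range. Arl13b, the ciliary membrane GTPase that activates ARL3, held 852, 673 and 545 normalized counts in the TKO retinae and 339.7, 330.1 and 435 in the DKO retinae (log2 fold change 0.91, standard error 0.18, adjusted p = 0.0136). Arl3, the GTPase that releases lipidated cargo inside the cilium, held 1952, 1919.8 and 1361 normalized counts in the TKO retinae and 952, 1008 and 1196 in the DKO retinae (log2 fold change 0.73, standard error 0.15, adjusted p = 0.016). For all 5 genes every TKO retina lay above every DKO retina, where this held for 18.0% of all genes.

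In the transition zone 3 of 9 genes rose and the other 6 did not pass. Rpgrip1, the anchor of RPGR in the connecting cilium and the largest mean and smallest p of this role (chromosome 14, 52110704 to 52163546), held 7264, 4966 and 4376 normalized counts in the TKO retinae and 2086, 1611 and 2707 in the DKO retinae (log2 fold change 1.37, standard error 0.23, adjusted p = 0.00952 from edgeR). Its lowest TKO retina lay 1.62-fold above its highest DKO retina. Exons of Supt16 on the opposite strand cover 8.7% of its exonic bases, and reads in these could be counted for either gene if strand was not used. Cep290, which bridges microtubules and membrane in the transition zone, held 2126, 1551 and 1237 normalized counts in the TKO retinae and 944, 799 and 1008 in the DKO retinae (log2 fold change 0.84, standard error 0.19, adjusted p = 0.0205), and 7.58% of its exonic bases overlap a gene on the opposite strand. Cc2d2a, a protein of the MKS complex, held 1921, 1479.8 and 1238 normalized counts in the TKO retinae and 970.3, 840.5 and 857 in the DKO retinae (log2 fold change 0.80, standard error 0.15, adjusted p = 0.0129). All 3 had their highest value in TKO replicate 1.

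The other 6 transition zone genes on the list, among them partners of RPGRIP1 and CEP290, did not pass the test. Tctn1, which was not on the list and belongs like Cc2d2a to the MKS complex, passed (0.38, adjusted p = 0.0424 from edgeR). RPGR and SPATA7 sit with RPGRIP1 in the connecting cilium. Rpgr held 513, 326 and 301 normalized counts in the TKO retinae and 354, 327 and 329.8 in the DKO retinae (log2 fold change 0.17, standard error 0.19, adjusted p = 0.568), and its groups overlapped. The fold was set by TKO replicate 1, without which it was -0.10. Spata7 had a log2 fold change of 0.16 (adjusted p = 0.415). Rpgrip1l, the paralog of Rpgrip1 found in the transition zone of most ciliated cells, had 0.18 (adjusted p = 0.314). Nphp4, a nephrocystin that binds RPGRIP1L, had 0.37 (adjusted p = 0.113). Ahi1 (jouberin) was the second most abundant transition zone gene by normalized count and held 3026, 3030.1 and 3309 normalized counts in the TKO retinae and 2971, 2673 and 2951 in the DKO retinae (log2 fold change 0.12, standard error 0.083, adjusted p = 0.335), a narrow range with every TKO retina slightly above every DKO retina, and its fold turned to -0.031 with total counts only. Iqcb1 (NPHP5), the partner of CEP290, held 403, 343 and 374 normalized counts in the TKO retinae and 489, 441 and 397 in the DKO retinae (log2 fold change -0.25, standard error 0.11, adjusted p = 0.173), the lowest fold of the 40 genes, and it did not pass.

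None of the 9 IFT-B genes passed the test in edgeR, and the median of the 9 was 0.16. At an unadjusted p under 0.05, 2 of them were higher, where 2588 of all 16904 genes were. Ift81, which binds tubulin with IFT74 and had the smallest p of this role (chromosome 5, 122550204 to 122614518), held 1127, 933 and 874 normalized counts in the TKO retinae and 775, 795 and 744 in the DKO retinae (log2 fold change 0.34, standard error 0.10, adjusted p = 0.0585). Its groups did not overlap, and DESeq2 gave it an adjusted p of 0.0467. Ift74, the partner of IFT81, held 497, 390.5 and 355 normalized counts in the TKO retinae and 469.6, 442 and 434 in the DKO retinae (log2 fold change -0.12, standard error 0.13, adjusted p = 0.581), with overlapping groups. Ift172, the peripheral subunit with the largest mean of IFT-B (chromosome 5, 31253277 to 31291116), held 1358, 976 and 1193 normalized counts in the TKO retinae and 1155, 903 and 983 in the DKO retinae (log2 fold change 0.21, standard error 0.14, adjusted p = 0.313), and DKO replicate 1 lay above TKO replicate 2. The core subunits Ift52, Ift88 and Ift46 had log2 fold changes of 0.16, 0.22 and -0.035, and the peripheral subunits Ift20, Ift57 and Ift80 had 0.072 (-0.088 with total counts only), -0.062 and 0.25. None of these 6 passed (adjusted p from 0.136 to 0.861), and 7.86% of the exonic bases of Ift57 overlap an antisense gene. The value for Ift57 turned to 0.24 without DKO replicate 3, which held 678 normalized counts where the other DKO retinae held 393 and 404.

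IFT-A and its motor lay a little higher, again with 0 of 7 past the test in edgeR and in DESeq2, 4 higher at an unadjusted p under 0.05 and a median of 0.28. Over all genes, 2588 of 16904 were higher at that unadjusted p. Ift43, the smallest IFT-A subunit (chromosome 12, 86082541 to 86162459), held 469, 388 and 349 normalized counts in the TKO retinae and 251, 285 and 341 in the DKO retinae (log2 fold change 0.46, standard error 0.15, adjusted p = 0.077), and DKO replicate 3 lay just under TKO replicate 3. Ttc21b (IFT139) had a log2 fold change of 0.29 (adjusted p = 0.086), and Wdr19 (IFT144) had 0.28 (adjusted p = 0.0859). Ift122 had 0.22, Ift140 had 0.14 and Wdr35 (IFT121) had 0.12. Dync2h1, the heavy chain of the dynein-2 motor (chromosome 9, 6928503 to 7184446), held 1378, 1014 and 1003 normalized counts in the TKO retinae and 1121, 718 and 877 in the DKO retinae (log2 fold change 0.32, standard error 0.18, adjusted p = 0.247), and DKO replicate 1 lay above TKO replicates 2 and 3. Every TKO retina lay above every DKO retina in 5 of these 7 genes, where this held for 18.0% of all genes. The folds of Ift140 and Wdr35 turned to -0.015 and -0.039 with total counts only.

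The retinae that stood nearest to the other genotype were the same for the rising ciliary genes and for the rod markers. TKO replicate 3 was the lowest TKO retina and DKO replicate 3 the highest DKO retina in 15 of the 16 ciliary genes that rose, in 10 of 10 genes of the BBSome group and in 12 of 12 rod markers. The same order held for 3 of the 16 IFT and motor genes, for 5 of the 24 ciliary genes that did not pass, and for 16.6% of all genes tested. Summed over the BBSome group and set against the mean of the DKO retinae on a log2 scale, the levels were 0.95, 0.90 and 0.55 in the TKO and -0.19, -0.18 and 0.31 in the DKO retinae. For the summed GTPases and photoreceptor cilium proteins they were 1.497, 1.5001 and 0.81 in the TKO and -0.34, -0.35 and 0.51 in the DKO retinae. For the summed rod markers they were 2.17, 1.95 and 1.15 in the TKO and -0.35, -0.39 and 0.54 in the DKO retinae. The summed IFT genes rose by less, at 0.34, 0.093 and 0.12 in the TKO and 0.045, -0.059 and 0.012 in the DKO retinae, with every TKO sum above every DKO sum. Replicate 3 was again the lowest TKO and the highest DKO retina for the summed transition zone genes, the summed cone markers and the summed RPE markers. The transition zone sums were 0.94, 0.58 and 0.49 in the TKO and 0.036, -0.17 and 0.12 in the DKO retinae. The cone sums were 1.002, 0.68 and 0.20 in the TKO and -0.34, -0.29 and 0.48 in the DKO retinae. The RPE sums were 0.87, 1.78 and 0.14 in the TKO and -1.67, 0.19 and 0.63 in the DKO retinae. The genotypes overlapped for the cone and RPE sums and did not for the rod sum. The part of rods, cones and RPE in the rise of the ciliary genes was not tested.

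**Figure D3:**
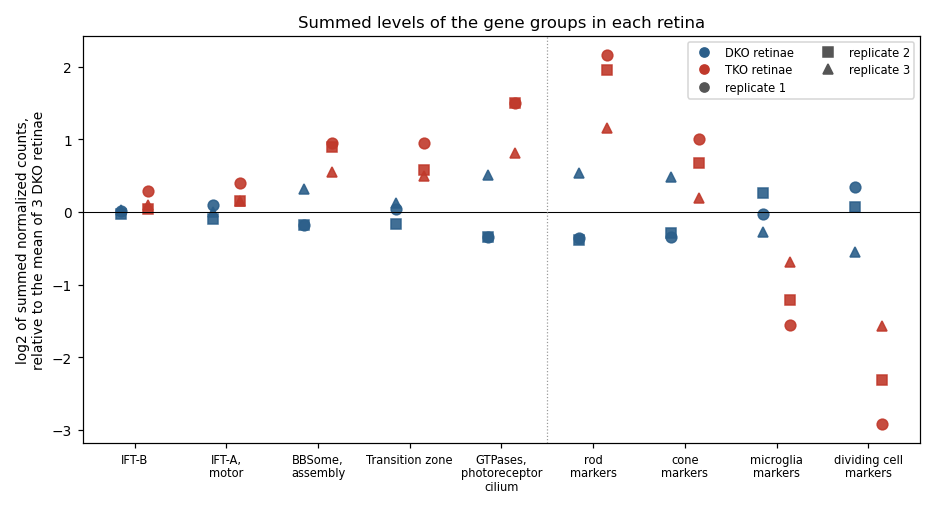
Summed normalized counts of each ciliary gene group and of 4 marker groups in each retina, as log2 relative to the mean of the 3 DKO retinae, with circles, squares and triangles for replicates 1, 2 and 3. Replicate 3 is the lowest TKO and the highest DKO retina for the BBSome, the transition zone, the photoreceptor cilium, the rods and the cones. Dividing cell and microglia markers run the other way. By these sums the IFT groups shift least of the ciliary groups. By the median fold of single genes the transition zone (0.18) lies below IFT-A and its motor (0.28).

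Within a library the groups changed unequally. The log2 ratio of the summed BBSome group to the summed IFT genes was 0.30, 0.50 and 0.12 in the TKO retinae and -0.54, -0.43 and -0.0098 in the DKO retinae, a difference of 0.63 with no overlap. The ratio of the summed photoreceptor cilium proteins to the IFT genes differed by 1.14 and that of the transition zone by 0.49, on the same scale. Sums weigh abundant genes most, and Tulp1 and Rpgrip1 had both the largest mean and the largest fold of these roles. By the median of single genes the transition zone (0.18) did not lie above the IFT genes (0.22). Set against the summed rod markers the groups were lower in TKO, with differences in log2 ratio of -1.004 for the BBSome group, -1.64 for the IFT genes and -0.49 for the photoreceptor cilium proteins. Tulp1, taken by itself against the rod markers, had a log2 ratio of -6.04, -5.76 and -5.77 in the TKO retinae and -5.78, -5.67 and -5.49 in the DKO retinae, where the groups overlapped in part. These ratios describe unequal change and have no test.

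Dividing cell markers and the crystallins among the lens markers moved too. Summed dividing cell markers were -2.93, -2.31 and -1.57 in the TKO and 0.35, 0.066 and -0.56 in the DKO retinae on the same log2 scale, so that replicate 3 was again the TKO retina nearest to DKO and the DKO retina nearest to TKO. Summed microglia markers were -1.55, -1.21 and -0.68 in the TKO and -0.033, 0.25 and -0.27 in the DKO retinae. Lens markers were highest in TKO replicate 2, with 3470 normalized counts, and 4 ciliary genes passed without that retina. The number was about as low without DKO replicate 2 (4) or DKO replicate 1 (5), whose lens markers summed to 109 and 106. The part of lens, RPE, microglia or dividing cells in these values was not tested.

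Further genes of the same complexes, or linked to them, were tested in the same fit. Of 40 other IFT, BBSome and transition zone genes, 10 rose and 0 fell, where 7.35% of all genes rose and 9.2% fell. Their median was 0.22, with 0 lower at an unadjusted p under 0.05 or in DESeq2, and 4 rose with total counts only. The median was 0.24 for the other IFT and motor genes, 0.22 for the other BBSome genes and 0.18 for the other transition zone genes. The median of this BBSome list thus did not lie above that of the IFT list. Of its 7 genes only Bbip1 (0.22) is a coat subunit, and the others act on the coat or in traffic to the cilium. Among 16 other IFT and motor genes 4 rose, with the smallest p for Dync2i1 (listed as Wdr60), an intermediate chain of dynein-2 (0.78, adjusted p = 0.0182 from edgeR), and Ift70a1 (listed as Ttc30a1), an IFT-B subunit (0.56, adjusted p = 0.0211). Among 7 other BBSome genes 3 rose, with the smallest p for Mkks, the third chaperonin-like assembly factor (0.58, adjusted p = 0.011), and Lztfl1, which controls entry of the BBSome into cilia (0.51, adjusted p = 0.0123). Among 17 other transition zone genes 3 rose, with the smallest p for Tmem237, a membrane protein of this zone (0.80, adjusted p = 0.0078), and Tctn1, a tectonic of the MKS complex (0.38, adjusted p = 0.0424). With 1 retina left out, between 1 and 14 of the 40 rose, the fewest without TKO replicate 2 (1), DKO replicate 1 (2) or DKO replicate 2 (2). In these 3 fits 308, 312 and 214 of all genes rose, against 1243 with all retinae.

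Of 22 other genes of the photoreceptor cilium and outer segment, 11 rose and 1 fell, with a median of 0.55, where 7.35% of all genes rose and 9.2% fell. Rp1l1 (2.03, adjusted p = 0.00691) and Rp1 (1.76, adjusted p = 0.00691), whose products line the axoneme of the outer segment, had the smallest p. The number that rose was 8 when TKO replicate 1 was left out, 4 for TKO replicate 2, 2 for DKO replicate 1 and 2 for DKO replicate 2. The gene that fell was Nek2, a kinase of the centrosome in dividing cells (-2.41, adjusted p = 0.0103), chosen after its value was seen, and it did not pass without TKO replicate 2. Of 12 basal body and distal appendage genes 1 rose and 1 fell, close to the shares of all genes (7.35% and 9.2%), with a median of -0.059. These were Cep164 (1.22, adjusted p = 0.00691) and Cep83 (-0.57, adjusted p = 0.019), which both act at the distal appendages. Cep83 did not pass in the fits without replicate 1 or 2 of either genotype.

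Genes of motile cilia, which the retina's photoreceptors do not build, had a median below 0. Of 16 tested 1 fell, no larger a share than the 9.2% of all genes, and 0 rose in edgeR (DESeq2 called 0 higher and 3 lower), with a median of -0.56. At an unadjusted p under 0.05, 3 were higher and 6 lower, where 2588 and 3004 of all 16904 genes were. The gene that fell was Foxj1, a transcription factor that motile cilia need (-1.32, adjusted p = 0.00877). Tekt1, a filament protein of motile axonemes, had -0.79 and did not pass (adjusted p = 0.0538). Among 7 ciliary transcription factors 1 fell and 1 rose, where 9.2% of all genes fell and 7.35% rose. Mcidas, a regulator of multiciliated cells, fell (-1.92, adjusted p = 0.0173 from edgeR). Rfx1, a factor that binds X-box sequences of ciliary promoters, rose (0.45, adjusted p = 0.0382 from edgeR). Mcidas was sparse, averaging 7.17 normalized counts in TKO against 27.5 in DKO. Rfx1 did not pass with total counts only or without replicate 1 or 2 of either genotype, and Mcidas did not pass without TKO replicate 2, DKO replicate 1 or DKO replicate 2.

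**Figure D4:**
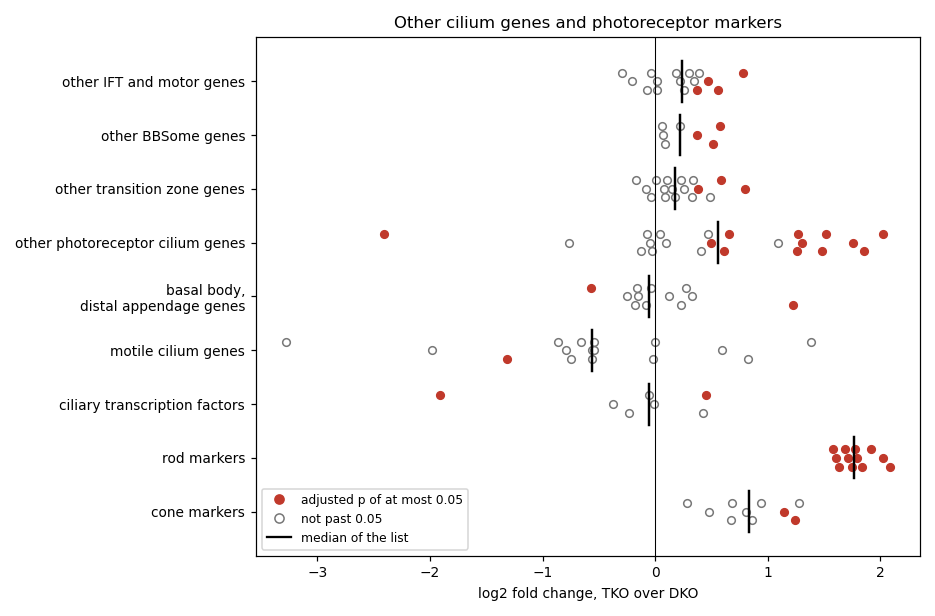
Log2 fold change of TKO over DKO for each gene of 7 other cilium lists and of the rod and cone markers, filled where the adjusted p was at most 0.05, with a bar at each list's median. Photoreceptor cilium genes spread from -2.41 to 2.03, motile cilium genes have a median of -0.56, and the 12 rod markers lie together at the right with a median of 1.76.

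Levels of different genes were compared per kilobase of exon. Tulp1 was the most abundant in TKO, with normalized counts per kilobase of 1522 in TKO and 519 in DKO, and Arl6 the most abundant in DKO, with 1289.6 in TKO and 724 in DKO. They were followed by Arl3, with 700.5 in TKO and 422 in DKO. Rpgrip1 took the fourth place in TKO and the thirteenth in DKO, with 455 in TKO and 176 in DKO. Ahi1 and Ift20 stood next, at 443 in TKO and 407 in DKO for Ahi1 and 390.5 in TKO and 372 in DKO for Ift20. At the other end were Rpgrip1l, with 27.7 in TKO and 24.4 in DKO, and Spata7, with 25.0 in TKO and 22.4 in DKO. Counts per kilobase depend on which exons the annotation holds.

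The promoters of the genes were read for binding sequences of factors tied to this setting, as a description of sequence and not of binding. CRX, the homeodomain factor of photoreceptors, binds TAATCC. RFX factors bind the X-box, an inverted repeat of sequences such as GTTGCC, which can therefore lie within it and was also searched on its own. E2F factors, which the Rb family restrains, bind TTTCCCGC, TTTGGCGC, TTTCGCGC or TTTGCCGC. Both strands of the 250 bases before the annotated start were searched in 37 of the 40 genes (Ift80, Ift81 and Ift122 had no promoter entry). Stretches of 120 bases are shown for the 3 rising genes that hold a CRX sequence, for Ift57, which holds an X-box but did not pass, and for Arl3, which holds an E2F sequence, all from RefSeq on GRCm38.p6, 5′ to 3′ on the gene's strand, with the matched letters in capitals. They are Rpgrip1 (chr14:52110783-52110902, plus strand, matched on the reverse strand 28 to 23 bases before RefSeq's start, inside the gene as GENCODE annotates it), Mak (chr13:41070596-41070715, minus strand, 218 to 213 bases before a second annotated start), Bbs1 (chr19:4906758-4906877, minus strand, 197 to 192 bases before), Ift57 (chr16:49699147-49699266, plus strand) and Arl3 (chr19:46573183-46573302, minus strand, 36 to 29 bases before).
Rpgrip1: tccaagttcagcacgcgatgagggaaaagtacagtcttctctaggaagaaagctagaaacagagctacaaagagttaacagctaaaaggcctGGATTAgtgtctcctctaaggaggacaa
Mak: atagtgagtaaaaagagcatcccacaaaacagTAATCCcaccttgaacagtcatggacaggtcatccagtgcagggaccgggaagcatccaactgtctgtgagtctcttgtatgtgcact
Bbs1: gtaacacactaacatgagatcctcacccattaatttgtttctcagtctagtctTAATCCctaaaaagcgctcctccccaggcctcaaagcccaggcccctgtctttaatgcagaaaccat
Ift57: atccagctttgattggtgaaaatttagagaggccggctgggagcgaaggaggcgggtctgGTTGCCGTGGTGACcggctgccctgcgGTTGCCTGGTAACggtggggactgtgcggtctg
Arl3: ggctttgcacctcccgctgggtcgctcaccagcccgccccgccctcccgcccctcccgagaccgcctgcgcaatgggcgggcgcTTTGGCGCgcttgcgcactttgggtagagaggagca

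The CRX sequence was found in 3 of 37 ciliary genes (8.11%), all 3 among the 16 that rose, and in 7.21% of 27025 promoters in all. The repeat unit GTTGCC was found in 4 of 37 (10.8%), Arl13b, Bbs7, Ift140 and Ift57, where 11.8% of all promoters hold it. The X-box was found in 1 (2.70% against 1.49%) and an E2F sequence in 1 (2.70% against 2.16%). Among 12429 promoters of tested genes alone the shares were 6.46% for CRX, 12.5% for GTTGCC, 1.67% for the X-box and 3.44% for E2F. With the 50 bases after the start included, GTTGCC was found in 13 of 37 genes (35.1% against 14.1% of all promoters), of which 5 were among the 16 that rose and 8 among the 21 that did not pass. The X-box was then found in 3 genes, Ahi1, Bbs1 and Ift57 (8.11% against 1.75%), and the count for CRX stayed at 3 (8.11% against 8.14%). Shares of the ciliary genes with CRX and E2F sequences were thus close to those of all promoters, and that of GTTGCC differed by window.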

How the data were processed

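RNA-seq counts of 3 TKO and 3 DKO retinae were analysed. The authors deposited a table of raw counts per gene symbol, without normalization. The study's methods name STAR and HTSeq with GRCm38, whereas the submitters' processing notes name TopHat2 and featureCounts beside DESeq2, mm10 and GRCm38. The strand setting of the counting is not given in the sources used here, so genes that overlap on opposite strands are less certain.

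Genes with a summed count under 10 were removed, and 16904 genes were tested with edgeR 4.0.16 in R 4.3.3 (TMM, glmQLFit and glmQLFTest, default arguments) with Benjamini-Hochberg adjustment over all of them. Standard errors were derived from the fitted fold and its F statistic (fold over root F, on the log2 scale). The mean normalized count of the 3 criteria used DESeq2 size factors. In data simulated on these libraries, edgeR recovered 74 of 100 genes changed by a log2 fold change of 1 and 93 of 100 changed by 2, and called 18 of 16529 unchanged genes. Alternatives were DESeq2 1.42.0, RLE or total count scaling, filterByExpr or no filter, robust dispersion, the replicate number as a block, and each retina left out in turn. Coordinates and exon lengths came from GENCODE M21 (GRCm38), which is not the annotation release that the study used, and promoters from RefSeq (GRCm38.p6).

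Total counts per retina lay between 10343907 and 14203098, and counts of replicates spread more widely than sampling alone gives, with chi-square values per degree of freedom of 8.97 to 26.6.

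The genes and lists were chosen with earlier results of these data known. All ciliary genes are given by role. Values in every retina were to be given for the genes called differentially expressed and, in each role, for those with the smallest p and the largest mean, and are also given for the other genes that passed and some of their partners, chosen after their values were seen. From each other cilium list the 2 genes with the smallest p are named, and from each marker list that is discussed the most abundant 3. A gene that this rule picks is left out here. Mip, Bfsp1, Bfsp2 and Bbip1 are named outside this rule, chosen after their values were seen.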

Additional observations from a re-analysis of the deposited data

How the results depend on the processing

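The number of ciliary genes that rose was 16, and it was 17 with DESeq2, 16 with RLE or total count scaling, with filterByExpr and with no filter, and 14 with robust dispersion. With 1 retina left out it ranged from 4 to 19 (4 without TKO replicate 2 or DKO replicate 2, 5 without DKO replicate 1). Over all genes the number that rose was 1243 with all retinae and ranged from 214 to 1617 in these fits. The 5 genes that met all 3 criteria became 3 with total counts only and 3 with robust dispersion, and between 1 and 10 with 1 retina left out. The number that fell was 0 in every fit. The median of 0.35 was 0.20 with total counts only, a scaling that moves the median of all genes from -0.011 to -0.17, and ranged from 0.29 to 0.41 with 1 retina left out. With total counts only the sign of 4 genes that did not pass turned, to -0.088 for Ift20, -0.015 for Ift140, -0.039 for Wdr35 and -0.031 for Ahi1. Signs also turned for Rpgr without TKO replicate 1 (range over these fits -0.10 to 0.32), for Ift46 without TKO replicate 2 (0.011) or DKO replicate 2 (0.0059; range -0.093 to 0.011), for Ift20 without DKO replicate 1 (range -0.010 to 0.12) and for Ift57 without DKO replicate 3 (range -0.20 to 0.24). The cause was not tested. With the replicate number as a block 0 of the 40 genes passed and 0 met the 3 criteria, and 106 of all genes passed in place of 2799. Deviations of retinae with the same number correlated at 0.0517, -0.0451 and -0.163, and retinae were not treated as pairs. Fits without 1 retina leave 2 retinae in a group, and the low counts of Mcidas and of the lens markers limit what their folds show.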
